A study of Ursus arctos with 12 samples.

Results

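The RBM genes encode proteins named for their RNA-binding motif, a small fold that grips single-stranded RNA. The genes described here are those of the brown bear (Ursus arctos) count table whose symbol is RBM followed by a digit, with 30 or more reads summed over the 12 libraries. RBM3, a cold-inducible protein of the same naming series, was left out by that rule. Of 33 such symbols, 32 passed, and RBM44, with 5 reads in all libraries together, did not. RBM4, RBM4B and RBM12 were not analysed here. The 32 genes are part of 17290 tested genes, out of 30249 in the table.

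The libraries came from the vastus lateralis, a thigh muscle, of 6 free-ranging bears aged 2 to 3 years. Each bear was biopsied in winter, while hibernating (February), and again in summer, while active (June of the same year), so that winter and summer have 6 libraries each from the same animals. The bears were captured and anesthetized for sampling, by the study's methods, and no other treatment is named. Whatever changes with season cannot be told apart here. The design asks which muscle mRNAs differ between hibernation and activity.

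RNA-binding motif proteins act along the life of an mRNA. Some are parts of the spliceosome, which removes introns; others choose exons in a given tissue, guide the enzymes that put a methyl group on adenosine (m6A), hand nuclear RNA to the exosome for decay, or help to assemble ribosomes in the nucleolus. In striated muscle the best known are RBM20, which sets the splicing of titin and is mutated in a form of dilated cardiomyopathy, and RBM24 and RBM38, which act in splicing and mRNA stability as muscle cells differentiate. The counts are per gene, so splice forms of a gene, with a skipped exon or a retained intron, were counted together.

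The libraries held between 16742406 and 32140160 counted reads. All 32 RBM genes had a read in every library and 28 of them at least 50. RBM11, RBM46, RBM47 and RBM41 were the sparser ones, with 3 to 15, 2 to 14, 11 to 25 and 14 to 102 reads per library. Levels are given as CPM, a gene's reads as a share of its library in parts per 1e6 (edgeR's cpm with TMM factors), and they are not corrected for gene length, so they are compared between libraries and not between genes. Skeletal muscle fibre markers summed to between 112595 and 187021 CPM in summer and between 120388 and 157991 CPM in winter, as the tissue label says. Over all genes the winter library of bear 1509 deviated most. Its median absolute deviation from the season mean over all genes was 0.30 on the log2 scale, against 0.18 to 0.27 in the other winter libraries. Over the 32 RBM genes the winter library of bear 1511 deviated most, at 0.287, and that of bear 1509 stood at 0.160. Several values are therefore also given without one of these bears.

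The seasons were set against each other in edgeR with the bear as a block (quasi-likelihood test across all genes), and a gene was called at a Benjamini-Hochberg adjusted p below 0.05. Of the 32 members, 13 (40.6%) were called, of which 10 rose and 3 fell in winter. Of all genes tested 40.8% were called, close to the share of the members. By direction, 10 of 32 members (31.2%) compare with 19.6% of all genes called higher, and 3 of 32 (9.38%) with 21.2% called lower. Within the limits for differentially expressed genes (DEGs, fold change over 1.3 or under 0.77 with an adjusted p under 0.01), 4 members were higher and 1 was lower, against 25.7% of all genes in either direction. Scaled by library totals in place of TMM, 7 members were called, 4 higher and 3 lower, where 39.2% of all genes were called, 15.6% higher and 23.6% lower. Without bear 1305, 8 members were called, of which 6 were higher, and the share of all genes called was then 32.8%, with 15.1% higher.

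The changes of the RBM genes were mostly small. Their median log2 fold change was 0.16, where that of all genes was −0.01, and with library totals both medians were lower, at 0.08 and −0.08. The median size of the change, whatever its direction, was 0.28 in the members and 0.46 in all genes. A change beyond 0.5 on the log2 scale was seen in 6 members (18.8%) and in 46.7% of all genes. In 13 members the change had one direction in all 6 bears, 10 of them higher in winter, beside 37.3% of all genes. The winter and summer levels did not overlap in 6 members, each of them higher in winter, beside 17.3% of all genes.

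**Figure D1:**
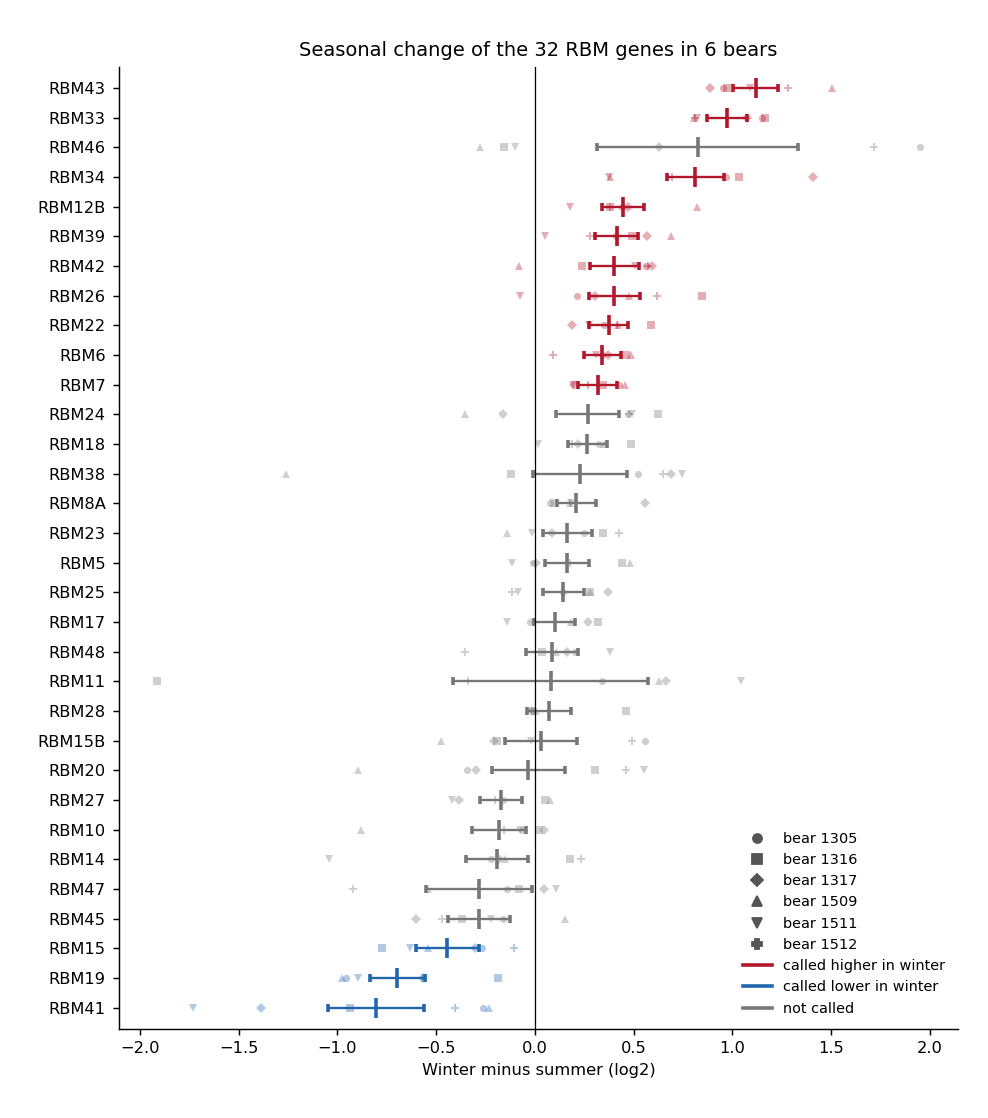
Winter minus summer difference on the log2 scale (x axis) for each of the 32 RBM genes (rows, ordered by fold change). Symbols are single bears, the vertical tick is the fitted log2 fold change and the bar its standard error. RBM43 and RBM33 lie above 0.8 in every bear, and RBM41, RBM19 and RBM15 lie below 0 in every bear.

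The largest changes among called members were the rises of RBM43 (2.17-fold), RBM33 (1.96-fold) and RBM34 (1.76-fold). RBM43, an RNA-binding motif protein whose role is little known, was at 9.31 to 16.9 CPM in summer (median 13.9) and at 21.3 to 32.7 CPM in winter (median 29.2). The log2 fold change was 1.12 with a standard error (SE) of 0.11 (adjusted p = 6.89e-05), and single bears lay between 0.88 and 1.50. RBM33, known as a partner of the m6A demethylase ALKBH5, was at 50.9 to 72.6 CPM in summer (median 65.0) and at 96.1 to 153 CPM in winter (median 119), a log2 fold change of 0.97 (SE 0.10, adjusted p = 7.47e-05). For both genes every winter library lay above every summer library. The bears differed little, with RBM33 between 0.81 and 1.16 on the log2 scale.

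RBM34, a nucleolar protein of ribosome assembly, was at 17.5 to 28.5 CPM in summer (median 24.8) and at 31.8 to 49.3 CPM in winter (median 46.4). Its log2 fold change was 0.81 (SE 0.15, adjusted p = 0.00145), from 0.38 to 1.41 in single bears, again with no overlap of the seasons. The widest difference belonged to bear 1317, whose summer library, at 17.5 CPM, was below the others. RBM43, RBM33 and RBM34 were called under each of the 14 alternatives, with adjusted p values of at most 0.00756.

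**Figure D2:**
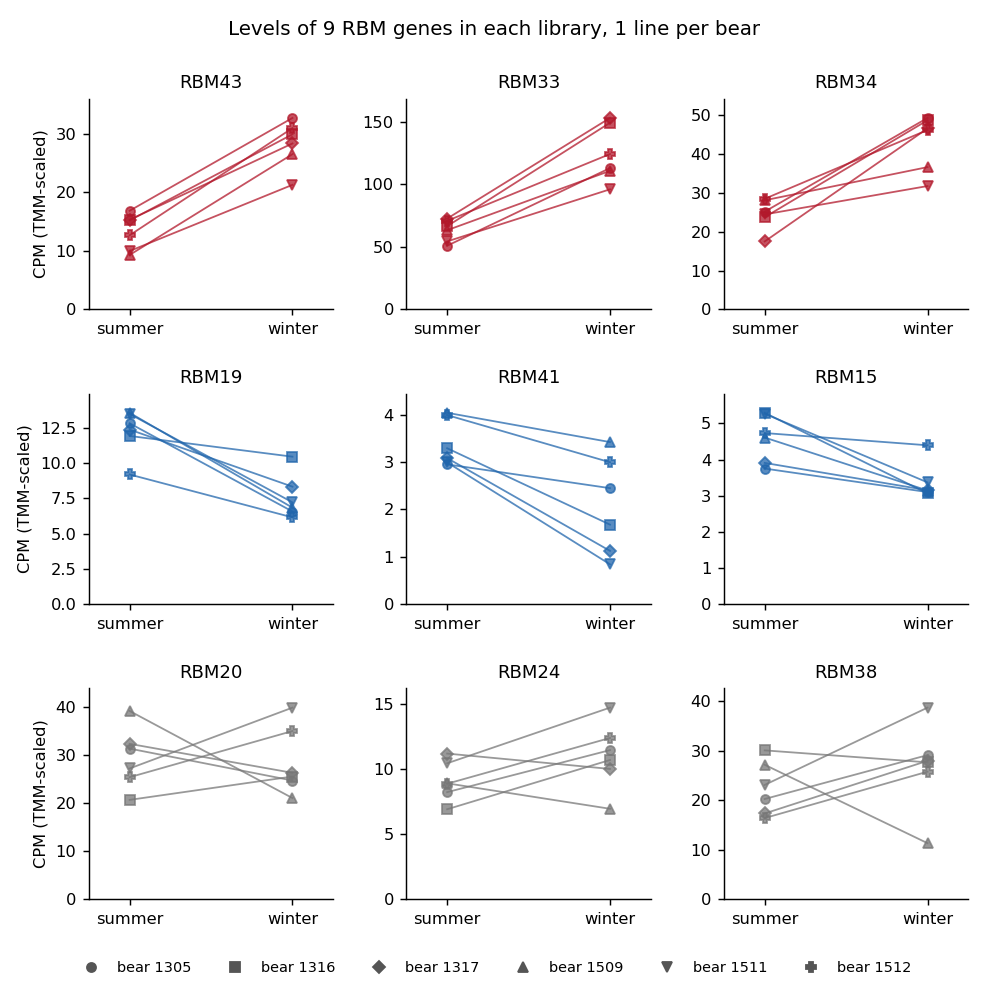
Level of 9 RBM genes (y axis, CPM scaled by TMM, from 0) in summer and winter, with 1 line and symbol per bear. The lines of RBM43, RBM33 and RBM34 rise and those of RBM19, RBM41 and RBM15 fall in all 6 bears, while the lines of RBM20, RBM24 and RBM38 cross; bear 1509 falls from 27.2 to 11.3 CPM in RBM38.

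The nucleolar members moved in different directions. RBM19, which is needed for processing of the ribosomal RNA of the small subunit, was at 9.19 to 13.6 CPM in summer (median 12.6) and at 6.15 to 10.5 CPM in winter (median 7.03). It was lower in 6 of 6 bears, with a log2 fold change of −0.70 (SE 0.14, adjusted p = 0.00281), although the lowest summer library, of bear 1512, lay below the highest winter library, of bear 1316. RBM28, which acts in assembly of the large subunit, was at 11.1 to 16.7 CPM in summer and at 12.6 to 16.7 CPM in winter, and was not called (0.07, SE 0.11, adjusted p = 0.641). RBM34 rose, as above. The call of RBM19 held under each alternative, with adjusted p of at most 0.0118.

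Of the 8 members that work in the major spliceosome or beside it, 4 were called, all higher in winter, beside the 40.8% of all genes called and the 19.6% called higher. RBM39, a splicing factor related to U2AF, was at 80.1 to 115 CPM in summer (median 105) and at 117 to 149 CPM in winter (median 138), with no overlap. Its log2 fold change was 0.41 (SE 0.11, adjusted p = 0.0112). RBM22, a protein of the activated spliceosome that contacts the U6 snRNA, was at 20.7 to 27.5 CPM in summer (median 22.7) and at 27.4 to 31.4 CPM in winter (median 30.1), so that the ranges barely overlapped. In 6 of 6 bears it rose, by 0.37 on the log2 scale (SE 0.10, adjusted p = 0.0112). RBM42, which associates with the tri-snRNP, was at 9.86 to 18.8 CPM in summer (median 13.6) and at 12.8 to 22.3 CPM in winter (median 18.4), with wide overlap. It rose in 5 of 6 bears, by 0.40 (SE 0.12, adjusted p = 0.0224). RBM6, an alternative splicing regulator, rose by 0.34 (SE 0.10, adjusted p = 0.0156), from a range of 40.8 to 47.9 CPM to one of 50.9 to 59.7 CPM.

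These rises were of 1.27 to 1.33-fold, and the calls were less firm than those above. With library totals the adjusted p was 0.0543 for RBM39, 0.0833 for RBM22, 0.0582 for RBM42 and 0.101 for RBM6. RBM42 was not called without the replicate block either (adjusted p = 0.079), nor without bear 1305, 1317, 1511 or 1512, within 0.00466 to 0.0842 over the alternatives. RBM6 had an adjusted p of 0.0533 without bear 1305. The remaining 4 were not called. RBM5 (log2 fold change 0.16) and RBM10 (−0.18) are relatives of RBM6 that control alternative splicing. RBM17 (0.10) helps to recognise the 3′ splice site and RBM25 (0.14) the 5′ splice site. Their adjusted p values lay between 0.267 and 0.458. RBM10 was lower by 0.88 on the log2 scale in bear 1509 and between −0.16 and 0.05 in the other bears, and without bear 1509 its log2 fold change was −0.036 (adjusted p = 0.813).

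Among 19 other genes of the U2 snRNP and the 3′ splice site, 6 were higher, while 0 were lower (0 in DESeq2 and 0 in limma voom, both with the block, and 1 at an unadjusted p below 0.05). Of all genes 19.6% were called higher and 21.2% lower, which is the background for this and the following lists. The median log2 fold change of the list was 0.19. SNRPA1, a core protein of U2, rose by 0.74 (SE 0.13, adjusted p = 0.00158), SF3B1, which binds the branch point region, by 0.58 (SE 0.11, adjusted p = 0.00235) and U2SURP, also U2-associated, by 0.57 (SE 0.10, adjusted p = 0.00161). U2AF2, the large subunit of U2AF, had a log2 fold change of −0.00 (adjusted p = 0.995). With library totals 4 of these genes were higher.

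The minor spliceosome removes a rare class of introns. RBM41, which binds the U12 and U6atac snRNAs of this machine, was at 2.95 to 4.04 CPM in summer (median 3.19) and at 0.842 to 3.42 CPM in winter (median 2.06). It was lower in 6 of 6 bears, with a log2 fold change of −0.80 (SE 0.24, adjusted p = 0.0218), from −1.73 in bear 1511 to −0.23 in bear 1509. The winter library of bear 1511 held 14 reads of this gene. Its adjusted p was 0.0743 without the replicate block, and 0.0553, 0.0644 and 0.0583 without bear 1316, 1317 or 1511, within 0.0139 to 0.0743 over the alternatives. RBM48, which works with ARMC7 in the same machine, was at 6.56 to 11.9 CPM in summer and at 7.55 to 9.28 CPM in winter and was not called (0.09, SE 0.13, adjusted p = 0.632).

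Of 11 other minor spliceosome genes tested, 5 were higher, while 0 fell by edgeR (0 at an unadjusted p below 0.05, 0 in DESeq2 and 0 in limma voom), with a median log2 fold change of 0.37. RNPC3, which binds the same 2 snRNAs as RBM41, rose by 1.50 (SE 0.16, adjusted p = 7.33e-05), and CCDC84, a protein of this machine now named CENATAC, by 1.27 (SE 0.13, adjusted p = 7.75e-05), each in 6 of 6 bears. ARMC7, the partner of RBM48, was not called at 0.37 (adjusted p = 0.0655). With library totals, or without bear 1305, 1317 or 1512, 3 of the 11 were higher.

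**Figure D3:**
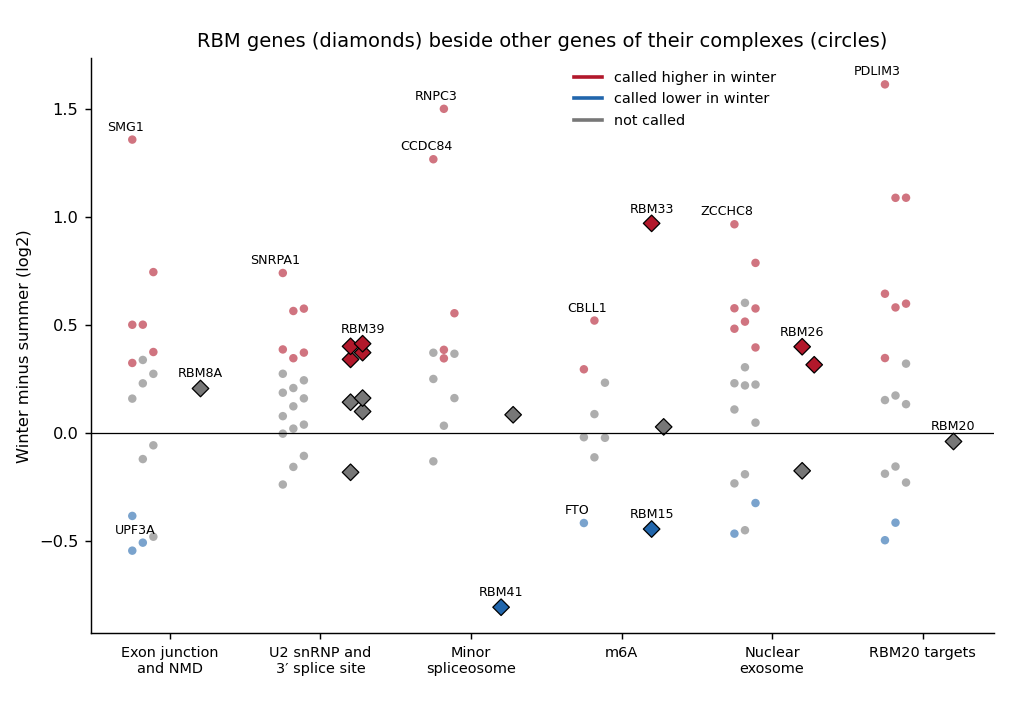
Winter minus summer log2 fold change (y axis) of RBM genes (diamonds) beside other genes of the same complex or process (circles), with colour for the call. RBM41 lies at −0.80 under a minor spliceosome list that reaches 1.50, and RBM33 at 0.97 lies above the m6A list.

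The m6A genes included both a rise and a fall. RBM15 and RBM15B, which bring the METTL3 methyltransferase complex to its RNA targets, are related proteins. RBM15 was at 3.75 to 5.29 CPM in summer (median 4.67) and at 3.07 to 4.39 CPM in winter (median 3.15), lower in 6 of 6 bears at −0.44 (SE 0.16, adjusted p = 0.0452). Its call was lost whichever bear was left out (adjusted p from 0.0526 without bear 1512 to 0.125 without bear 1316), in DESeq2 with the block (0.075) and without the filter (0.0583). RBM15B was at 3.01 to 5.21 CPM in summer and at 3.03 to 5.18 CPM in winter, without a call (0.03, SE 0.18, adjusted p = 0.91). Of 8 other m6A genes, 2 were higher and 1 lower: CBLL1, a subunit of the writer complex, rose by 0.52 (adjusted p = 0.00161) and METTL14, which pairs with METTL3, by 0.30 (adjusted p = 0.0385), while the demethylase FTO fell by 0.41 (adjusted p = 0.00869). The median of this list was 0.04, and 1 of its genes was higher with library totals, without the filter, or without bear 1305, 1316, 1317, 1509 or 1511. ALKBH5, the partner of RBM33, had a log2 fold change of −0.02 (adjusted p = 0.912) and METTL3 one of −0.11 (adjusted p = 0.467).

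Adaptors of the nuclear exosome choose the RNAs to be degraded. RBM7, a subunit of the NEXT complex with ZCCHC8 and MTREX, was at 15.0 to 18.3 CPM in summer (median 16.9) and at 19.1 to 22.8 CPM in winter (median 20.5), with no overlap. It rose by 0.32 (SE 0.10, adjusted p = 0.0252) in 6 of 6 bears. RBM26, a zinc finger protein of the PAXT connection, was at 15.1 to 21.2 CPM in summer (median 19.3) and at 18.5 to 32.6 CPM in winter (median 24.7). It rose in 5 of 6 bears, by 0.40 (SE 0.13, adjusted p = 0.029). RBM27, its relative, was at 25.9 to 39.8 CPM in summer and at 23.6 to 39.8 CPM in winter and was not called (−0.17, SE 0.11, adjusted p = 0.219). With library totals neither RBM7 (adjusted p = 0.15) nor RBM26 (0.108) was called. RBM7 was also lost without bear 1305 (0.0947), 1316 (0.0561) or 1512 (0.0583) and without the filter (0.0634), and RBM26 without bear 1305 (0.0522), 1316 (0.0887), 1317 (0.051) or 1512 (0.0938). Of 19 other exosome genes and adaptors, 7 were higher and 2 lower, with a median of 0.23. ZCCHC8 rose by 0.97 (SE 0.13, adjusted p = 0.000249) and ZFC3H1, the scaffold of PAXT, by 0.58 (SE 0.11, adjusted p = 0.0024), while the helicase MTREX was not called at −0.23 (adjusted p = 0.162). Without bear 1305, 0 of them were lower, and without bear 1316, 1317, 1511 or 1512, 1 was.

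RBM8A, also called Y14, is the single member in the core of the exon junction complex, which marks spliced mRNA and serves nonsense-mediated decay. It was at 29.3 to 46.4 CPM in summer (median 38.3) and at 40.7 to 48.9 CPM in winter (median 43.5). It was higher in 6 of 6 bears but not called, at 0.21 (SE 0.10, adjusted p = 0.118, within 0.0955 to 0.36 over the alternatives). Of 16 other genes of the complex and of nonsense-mediated decay, 6 were higher and 3 lower, with a median of 0.25. MAGOH, which forms a dimer with RBM8A, rose by 0.50 (SE 0.10, adjusted p = 0.0031) and the kinase SMG1 by 1.36 (SE 0.15, adjusted p = 9.46e-05), while UPF3A fell by 0.51 (SE 0.11, adjusted p = 0.00413). The helicase EIF4A3 was not called at 0.16 (adjusted p = 0.444).

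Of the 3 muscle regulators 0 were called in edgeR and 0 in DESeq2 or limma voom (0 at an unadjusted p below 0.05 in edgeR). RBM20 was at 20.7 to 39.2 CPM in summer (median 29.3) and at 21.1 to 39.9 CPM in winter (median 26.0), with a log2 fold change of −0.03 (SE 0.18, adjusted p = 0.90). The bears went apart, from −0.89 in bear 1509 to 0.55 in bear 1511, 3 of 6 higher in winter. RBM24 was at 6.92 to 11.2 CPM in summer (median 8.90) and at 6.95 to 14.7 CPM in winter (median 11.1), with 4 of 6 bears higher (0.27, SE 0.16, adjusted p = 0.201). RBM38 was at 16.4 to 30.1 CPM in summer (median 21.7) and at 11.3 to 38.7 CPM in winter (median 27.8), also with 4 of 6 bears higher (0.23, SE 0.24, adjusted p = 0.472).

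Bear 1509 weighed on all 3 muscle regulators. It gave the lowest difference of each, −0.89 for RBM20, −0.35 for RBM24 and −1.26 for RBM38. Without it RBM38 was called higher at 0.51 (adjusted p = 0.0149) and RBM24 at 0.40 (adjusted p = 0.0463), and RBM20 stood at 0.15 (adjusted p = 0.474). Leaving out the bear with the lowest difference raises the estimate in any case, so these calls alone do not show a rise. Of all genes 41.9% were called without bear 1509. With any other bear left out, RBM38 and RBM24 were not called. Of 16 genes known as splicing targets of RBM20, 7 were higher and 2 lower as whole genes, with a median of 0.25 (1 lower without bear 1305, 1316, 1317 or 1509). TTN, which encodes titin, rose by 0.65 (SE 0.15, adjusted p = 0.00674) and PDLIM3, a Z-disc protein, by 1.62 (SE 0.17, adjusted p = 7.5e-05), while FHOD3, a formin of the sarcomere, fell by 0.49 (SE 0.12, adjusted p = 0.00784). Gene counts do not show which exons these mRNAs held.

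The remaining members have other or less known roles. RBM12B was at 17.9 to 26.7 CPM in summer (median 21.8) and at 24.3 to 34.8 CPM in winter (median 31.3). It rose by 0.45 (SE 0.11, adjusted p = 0.00752) in 6 of 6 bears and was called under each alternative. RBM18 lay at the threshold, with a log2 fold change of 0.26 (SE 0.10, adjusted p = 0.0516) and 6 of 6 bears higher. It was called without the replicate block (adjusted p = 0.0236), in DESeq2 with it (0.0404), with RLE normalization (0.0471), with filterByExpr (0.0383), by limma voom (0.0459), and with bear 1511 left out (0.0397). Over all alternatives its adjusted p ran from 0.00462 to 0.259.

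Splicing regulators and tissue-restricted members without a call were RBM23, RBM14, RBM45, RBM47, RBM11 and RBM46. RBM23, a relative of RBM39, had a log2 fold change of 0.16 (adjusted p = 0.316). RBM14, a protein of paraspeckles, stood at −0.19 (adjusted p = 0.355), with −1.04 in bear 1511, and at −0.027 (adjusted p = 0.88) without that bear. RBM45, which was lower in 5 of 6 bears and higher in bear 1509, stood at −0.28 (adjusted p = 0.172), and at −0.36 (adjusted p = 0.088) without that bear. RBM47, a cofactor of C-to-U RNA editing, was at 0.651 to 0.997 CPM in summer and at 0.456 to 1.08 CPM in winter (−0.28, adjusted p = 0.424). RBM46, a germ cell protein, had a log2 fold change of 0.82 with an SE of 0.51 (adjusted p = 0.22), and RBM11 one of 0.08 with an SE of 0.49 (adjusted p = 0.91). RBM46 and RBM11 had 2 to 15 reads per library, so changes small against these standard errors were not detectable at this depth.

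**Figure D4:**
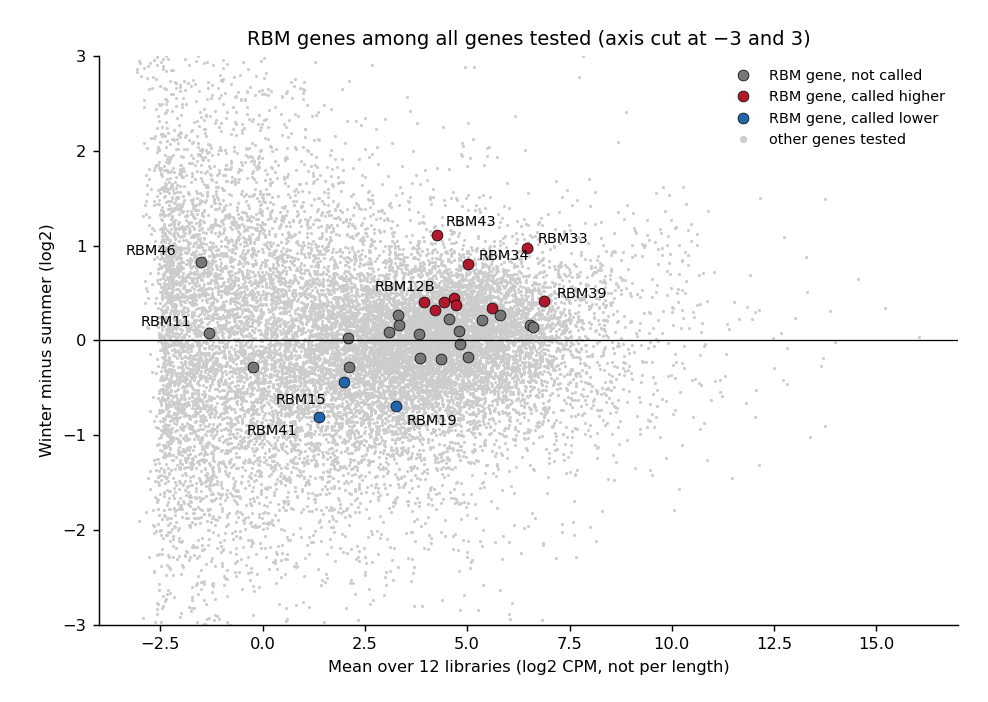
Winter minus summer log2 fold change (y axis) against the mean log2 CPM over the 12 libraries (x axis) for the 32 RBM genes (large points) and the other genes tested (grey). The y axis stops at −3 and 3, beyond which 299 genes lie, and the called RBM genes lie between −0.80 and 1.12.

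Related members were also compared within a library, where the scaling of the library plays no part. The measure was the log2 ratio of their reads, tested in winter against summer by a two-sided exact permutation test over the 64 sign patterns of 6 bears, which cannot give a p below 0.0312, with adjustment over the 5 pairs that had both members. At an adjusted p below 0.05, 0 pairs were called, with 2 at an unadjusted p below 0.05. A pair at the smallest p could pass the adjustment only if nearly all of the 5 pairs stood there too. Hence 0 calls do not show that the ratios were unchanged. RBM26/RBM27 moved by 0.57 ± 0.22 (SD, n = 6 bears, exact p = 0.0312, adjusted p = 0.0781) and was higher in winter in 6 of 6 bears, from 0.35 to 0.82. RBM15/RBM15B moved by −0.47 ± 0.31 (SD, n = 6 bears, exact p = 0.0312, adjusted p = 0.0781), lower in 6 of 6 bears. RBM5/RBM6 (−0.18 ± 0.23), RBM5/RBM10 (0.35 ± 0.53) and RBM23/RBM39 (−0.25 ± 0.35) changed by less than the SD between bears, with adjusted p of 0.156 each in the exact test. The difference of RBM5/RBM10 was 1.36 in bear 1509 and at most 0.42 in the other bears, and its mean without bear 1509 was 0.15.

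**Figure D5:**
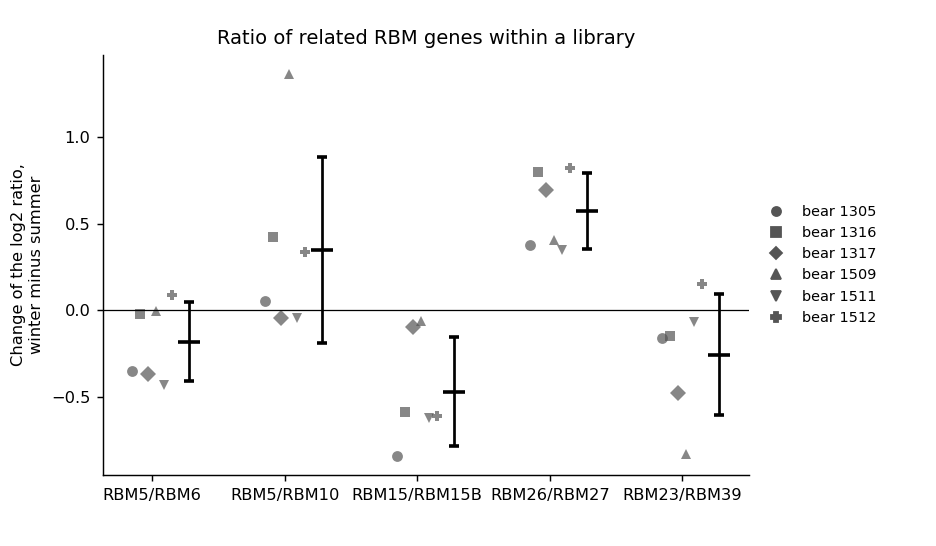
Change of the log2 ratio of 2 related RBM genes from summer to winter (y axis) in 5 pairs (x axis), with a symbol per bear and the mean ± SD over 6 bears beside them. All bears lie above 0 for RBM26/RBM27 and below 0 for RBM15/RBM15B.

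Added up, the 32 members took 809 to 878 CPM in summer and 913 to 1112 CPM in winter. As CPM from library totals, without TMM, they took 752 to 935 in summer and 883 to 1098 in winter, ranges that overlap. Within every bear the winter sum was nevertheless the higher one on both scales. The smallest step without TMM was that of bear 1511, from 861 to 883. Without RBM33 the sums were 742 to 807 CPM in summer and 817 to 963 CPM in winter. The bears differed in how many members were higher in winter, from 17 of 32 (53.1%) in bear 1511 to 23 of 32 (71.9%) in bear 1316. Of all genes, 49.2% were higher in bear 1511 and 48.2% in bear 1316. The winter library of bear 1511 was the lowest of the winter libraries in 14 of the 32 members.

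Of the RBM-named genes outside the rule, 2 of 6 tested rose, while 0 fell by edgeR (0 in DESeq2, and 0 at an unadjusted p below 0.05). RBM3 rose by 2.41 (SE 0.15, adjusted p = 6.04e-06) on the log2 scale, beyond each of the 32 members, and RBMS3 by 0.75 (SE 0.13, adjusted p = 0.00141).

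Markers of other cells in the biopsy moved with season too. Of 6 fibroblast markers, 5 were lower in winter, and their sum went from 3072 to 7905 CPM in summer to 231 to 1288 CPM in winter. Of 6 endothelial markers 4 were lower and 1 higher (520 to 824 CPM, then 362 to 428 CPM), of 5 smooth muscle and pericyte markers 3 were lower (333 to 460 CPM, then 149 to 247 CPM), and of 4 macrophage markers 2 were lower (47.3 to 97.2 CPM, then 35.1 to 62.2 CPM). Satellite cell markers were lower in 3 of 4, with sums of 12.9 to 23.9 CPM in summer and 5.96 to 27.3 CPM in winter, and T cell markers in 1 of 4. Of 4 adipocyte, 3 Schwann cell and 2 erythroid markers 0 were called. None of these markers was at 0 in all winter libraries. Of 8 muscle fibre markers 1 was higher and 2 lower. The part of these cells in the results on RBM genes was not tested. In bulk muscle, fewer cells of a type and less RNA per cell cannot be told apart.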

How the data were processed

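Muscle mRNA of 6 bears, in summer and winter, was sequenced as stranded TruSeq libraries (single reads of 50 bases). The authors aligned the reads to ASM358476v1 with TopHat 2.1.1, counted reads per gene by strand with featureCounts 1.6.2, and deposited raw counts, not normalized. Sequencing used 2 lanes, and which library went into which is not given in the sources used here; their effect was not tested. How reads that map to several genes were counted is not given there either, so counts of closely related genes are uncertain.

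Only genes with a summed count of at least 30 entered. The fit was made with R 4.3.3 and edgeR 4.0.16 (TMM, glmQLFit, glmQLFTest) with season and bear as terms, since the RBM comparison is paired by animal, and Benjamini-Hochberg adjustment covered all 17290 genes. The standard error was the log2 fold change divided by the root of the F statistic. Summer and winter libraries of a bear came from the same animal, by the study's methods. The correlation of their residuals around the season mean was 0.0903 to 0.344, against a median of −0.0634 between bears. The highest value between bears was 0.142, above the 0.0903 of bear 1509. The study's methods give DESeq2 but no design formula. Alternatives were no block, DESeq2 1.42.0 and limma 3.58.1 voom, RLE or library totals, other filters, and leaving out each bear. Ratios of related genes used 0.5 added reads and scipy 1.17.1. The edgeR, DESeq2 and limma voom fits were tested on simulated data. Members described in full were up to 8 called ones in each direction with the largest change at a mean of at least 0 log2 CPM (8 rises and the 3 falls called), plus RBM20, RBM24, RBM38 and RBM8A and any pair whose ratio changed; the other members and the partner genes with values were added for their role or after their values were seen. The members, partner lists and marker lists were chosen with earlier results of these data known. Of the 32 symbols, 31 matched RefSeq's UrsArc2.0 gene table, whose coordinates belong to another assembly and were not used.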

Additional observations from a re-analysis of the deposited data

Results flagged for a closer look

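In 6 of the 64 season groups (32 RBM genes in 2 seasons), one library lay so far from the other five that its gap to the nearest, divided by the range of the 6 log2 CPM values, was above Dixon's 95% critical value. Chance flags about 1 in 20 groups. In the winter library of bear 1509, RBM38 was at 3.51 log2 CPM, against 4.69 to 5.28 in the other bears, and RBM45 at 2.37, against 1.73 to 1.95. RBM14 was at 4.82 log2 CPM in the summer library of bear 1511, against 4.30 to 4.48 in the others. RBM15 was at 2.16 log2 CPM in the winter library of bear 1512, against 1.66 to 1.79, and RBM19 at 3.21 in the summer library of the same bear, against 3.59 to 3.77. RBM34 was at 4.14 log2 CPM in the summer library of bear 1317, against 4.58 to 4.84 in the other bears. The causes were not tested.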

How the results depend on the processing

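With library totals 7 RBM genes were called and 4 were higher, where 39.2% of all genes were called and 15.6% were higher. Leaving out each bear in turn gave 8 to 14 called members, 6 to 12 higher and 1 to 2 lower. Without bear 1316, 1317 or 1511, 1 member was lower. Of all genes, 32.8% to 41.9% were called with a bear left out, 15.1% to 20.5% higher and 17.4% to 21.4% lower. Members within the DEG limits were 3 to 5, with 3 without bear 1305, beside 25.7% of all genes when no bear was left out. In the partner lists together, 43 of 95 genes (45.3%) were called, beside 40.8% of all genes. With a bear left out 31 to 42 of them were called, beside the 32.8% to 41.9% of all genes. Without the replicate block 12 members and 39.5% of all genes were called, with changed calls for RBM41, RBM42 and RBM18. Some members without a call changed sign: RBM15B stood at −0.0495 and RBM28 at −0.00741 with library totals. With a bear left out, RBM15B ran from −0.10 to 0.14, RBM28 from −0.00668 to 0.0945, RBM20 from −0.15 to 0.15 and RBM11 from −0.14 to 0.55. In all, 15 members changed a call or sign under some alternative and 17 did not; the cause was not tested. Among the called members, only RBM43, RBM33, RBM34, RBM19 and RBM12B kept their call under each alternative. The other called members each lost it under some alternative. RBM11 and RBM46 were dropped by filterByExpr, so they have no value there. With a prior count of 2 reads, 0 related pairs were called, as before. The adjusted exact test could call a pair only if nearly all pairs reached its smallest p, so this shows little about stability. With a bear left out, 5 bears cannot reach a p below 0.0625, so only the values of the pairs were recomputed. Depth limits RBM11, RBM46 and RBM47, with at most 25 reads per library.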
